A study of Homo sapiens with 9 samples.

Results

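The genes described here are 10 members of the YAP and TEAD pathway, taken by symbol from gene tables of 25593 loci: the targets ANKRD1, CTGF (now CCN2) and CYR61 (now CCN1), the targets that also feed back on the pathway AMOTL1, AMOTL2 and LATS2, the receptor gene AXL, and YAP1, WWTR1 and TEAD1, which encode the transcriptional machinery. All 10 were found in each table and all 10 passed the filter on low values. ANKRD1 was chosen by its FPKM in FSB and F, the groups described next, since it was among the largest increases with the inhibitor SB431542. Its values are therefore given as a description with no test in any comparison, and the tests cover the other 9 genes. Those 9 were named as pathway genes, though with earlier results of these data known.

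The cells were derived from H9, a widely used line of human embryonic stem cells. Clumps were differentiated for 6 days with 10 µM SB431542, a compound that blocks type I receptors of the TGF-β, Activin and Nodal branch, and CD271-high, CD73-negative cells were sorted according to the growth protocol, although the cell type label gives both markers as positive. Group F was then expanded in chemically defined medium with FGF2 at 5 to 10 ng/ml, and group FSB with the same FGF2 and 3 to 5 µM SB431542. Group F_FSB spent 4 passages in FSB and 3 further passages in F. All 3 groups shared the cell line, the earlier SB431542, fibronectin-coated dishes and 5% oxygen, and were harvested at passage 6 to 7. Each group had 3 libraries, which the series calls biological replicates. "Rose" and "fell" below compare groups, not times in one culture.

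YAP and its paralog TAZ (the product of WWTR1) are cofactors that enter the nucleus, bind TEAD proteins on DNA and switch on genes for adhesion, matrix and growth. The Hippo kinases LATS1 and LATS2 phosphorylate both cofactors and keep them in the cytoplasm, while stretched, spread cells with strong actin bundles let them into the nucleus. Because this control acts on the proteins, RNA levels of the cofactors and of their targets are separate measures. Several targets, CTGF among them, are also known to respond to TGF-β through SMAD proteins.

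Values are FPKM, fragments per kilobase of transcript and scaled to the fragments of the library, as the authors deposited them. Differences are on the scale of log2(FPKM + 1), fitted with limma over 13216 genes, and adjusted p is the Benjamini-Hochberg value over all of them, with a threshold of 0.05. FPKM sums were 361026 to 506146 per library. Fragment counts are not in the tables, and a rough estimate put F_FSB replicate 2 at 60.1% of the deepest library and the other libraries at 82.7% or more. Deposited FPKM lay above the interval that Cufflinks gives in the same table for CYR61 in 9 of 9 libraries and for ANKRD1 in 4 of 9, by at most 1.05 times the upper bound. In bulk samples, fewer cells of a type and less RNA per cell cannot be told apart. Where differences are small the scale matters: the median difference over all genes was 0.14 for FSB minus F and -0.13 for F_FSB minus FSB.

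Markers of the labelled cell type were present only in part. Of the crest factors, SOX10 had means of 0.0178, 0.612 and 0.00571 FPKM in F, FSB and F_FSB, and FOXD3 had 0, 0.0151 and 0. The SOX10 mean in FSB came from replicate 3 at 1.69 FPKM and was 0.0755 without it. TFAP2A, a further crest factor, was at 15.1, 60.7 and 21.0. The summed level of 9 crest markers was 157 to 197 FPKM in F, 422 to 455 in FSB and 133 to 146 in F_FSB. Of 6 tested, 4 rose in FSB relative to F, beside 28.5% of all genes: TFAP2A, ETS1, TWIST1 and NGFR. NGFR, which encodes the sort marker CD271, had means of 20.0, 120 and 4.89, while SOX9 and SNAI2 did not pass. The summed level of 6 mesenchymal markers was 6349 to 7217, 1092 to 1190 and 5992 to 7812 FPKM, mostly COL1A1 and COL1A2. In FSB relative to F, 4 of these 6 fell, beside 13.4% of all genes. PDGFRB (82.5, 91.1 and 94.1) and THY1 (24.6, 29.3 and 27.4) did not pass. Because ANKRD1 is best known from heart and skeletal muscle, 12 muscle markers were summed as well, giving 3.25 to 9.13, 2.52 to 9.27 and 1.83 to 3.86 FPKM, with MYL7, MYL2 and MYOG at 0 in all 9 libraries. Summed levels were 1.498 to 7.84, 84.6 to 104 and 1.61 to 4.87 FPKM for 7 pluripotent cell markers, mostly LIN28A in FSB. For 6 epithelial markers, mostly KRT8 and KRT18, they were 35.5 to 112, 109 to 206 and 78.5 to 188, and for 6 endothelial markers 2.87 to 6.01, 5.47 to 6.12 and 1.53 to 5.40. Within the endothelial sum, CDH5 and TIE1 had means of 3.43 and 1.62 FPKM in FSB against 0.143 and 0.226 in F and 0.208 and 0.162 in F_FSB, while TEK had 0.131 against 3.40 and 1.68. The crest, mesenchymal and pluripotent sums and these endothelial genes thus stood apart in FSB from both other groups, beside each comparison with FSB below. Between F_FSB and F the mesenchymal, pluripotent and endothelial sums overlapped and the crest sums did not. Their part in the results was not tested.

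**Figure D1:**
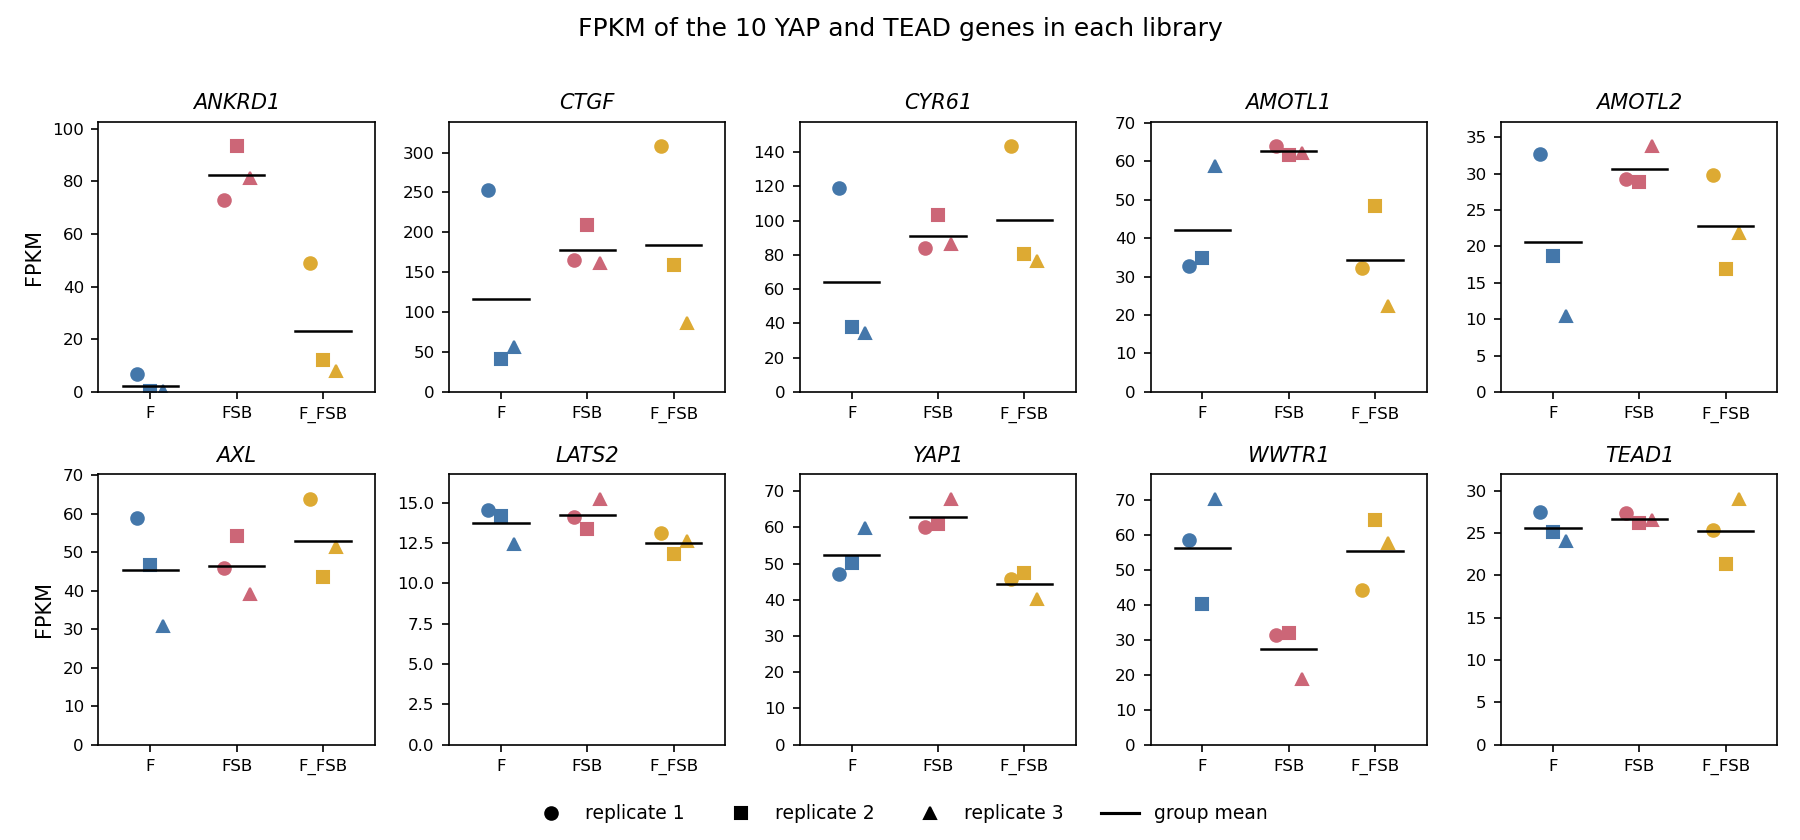
FPKM (linear axes from 0) of each of the 10 genes in the 3 libraries of F, FSB and F_FSB; symbols give the replicate and black lines the group mean. ANKRD1 is at 72.8 to 93.3 in FSB and at 0.207 to 6.65 in F, WWTR1 is lowest in FSB, and CTGF, CYR61 and AMOTL2 have F replicate 1 far above the other F libraries.

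ANKRD1 (GRCh37, chromosome 10, 92671857 to 92681032) encodes a nuclear and sarcomeric ankyrin-repeat protein. It had 6.65, 0.270 and 0.207 FPKM in the F libraries, 72.8, 93.3 and 81.4 in FSB, and 49.0, 12.02 and 7.95 in F_FSB. The groups followed each other without overlap, with F lowest, F_FSB between and FSB highest. The mean in FSB was 34.7 times that in F (82.5 ± 10.3 against 2.38 ± 3.70, SD, n = 3, log2 difference 5.19), and the mean in F_FSB was 0.279 times that in FSB and 9.67 times that in F (23.0 ± 22.6, n = 3). Both folds over F rest on F replicate 1, which holds most of the mean of F: without it that mean was 0.239 FPKM, and the folds were 345 for FSB and 96.2 for F_FSB. Without F_FSB replicate 1 the mean of F_FSB was 9.99 FPKM, 0.121 times that of FSB and 4.20 times that of F. Leaving out each library in turn, the log2 difference between FSB and F ran from 4.74 to 6.07. These are the values for which the gene was chosen or share libraries with them. The gap between F_FSB and F is narrow at its edge: F_FSB replicate 3 has a Cufflinks interval of 6.46 to 8.65 and F replicate 1 one of 5.31 to 7.59, which overlap. In the 2 lowest libraries, F replicates 2 and 3, the intervals were 0.121 to 0.412 and 0.0698 to 0.326. With the pseudocount of 0.1 the log2 difference between FSB and F was 6.49 and that between F_FSB and F 4.20, against 2.99 with the pseudocount of 1.

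CTGF and CYR61, the other members of the usual trio of YAP readouts, did not show this separation of the groups. CTGF (chromosome 6, 132269316 to 132272518) encodes a secreted CCN protein of the matrix. It had 253, 40.8 and 55.9 FPKM in F, 165, 209 and 162 in FSB, and 308, 159 and 87.0 in F_FSB. The F libraries lay on both sides of all FSB libraries, and so did those of F_FSB. CTGF therefore did not pass in any comparison (FSB minus F 1.08, SE 0.68, limma, adjusted p = 0.236; F_FSB minus FSB -0.12, adjusted p = 0.899; F_FSB minus F 0.95, adjusted p = 0.664). CYR61 (chromosome 1, 86046444 to 86049650), also a CCN protein, is a fast-responding target. Its values were 119, 38.1 and 34.4 FPKM in F, 84.0, 103 and 86.3 in FSB, and 143, 80.7 and 76.6 in F_FSB. Replicate 1 was again the highest library of F and of F_FSB, as for ANKRD1 and CTGF, and no comparison passed (FSB minus F 0.74, SE 0.45, limma, adjusted p = 0.223). Without F replicate 1, CTGF and CYR61 were both higher in FSB than in F (1.87 and 1.30, limma, adjusted p = 0.0195 and 0.00931). In a ratio chosen after the values were seen, CTGF had 1.98 to 2.26 times the FPKM of ANKRD1 in FSB, 6.29 to 13.3 times in F_FSB and 38.0 to 269 times in F.

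The promoters of these genes are shown because TEAD proteins bind the letters GGAATG, and the presence of those letters can be set beside the unlike levels. RefSeq start windows (GRCh38.p14) were matched for 8 of the 10 genes, with no entry matched for CYR61 and TEAD1, and the 250 bases before each start were searched for GGAATG on both strands (read as CATTCC on the printed strand). At least 1 match was in 11.9% of all 35116 windows, at least 2 in 0.928% and at least 3 in 0.0797%. ANKRD1 (chr10:90921088-90921337, minus strand) had 2, at positions -220 and -128 from the start. CTGF (chr6:131951373-131951622, minus strand) had 3, at -169, -104 and -95. AMOTL2 (chr3:134374448-134374697, minus strand) had 1 at -69 before the second of its 2 listed starts. AXL had 1 at -212 before the second of its 2 starts and YAP1 had 1 at -162, while the windows of AMOTL1, LATS2 and WWTR1 had none. In the printed sequences, 5′ to 3′ on the gene's strand, capitals mark the matches. A match is a run of letters and not evidence of binding in these cells.
ANKRD1: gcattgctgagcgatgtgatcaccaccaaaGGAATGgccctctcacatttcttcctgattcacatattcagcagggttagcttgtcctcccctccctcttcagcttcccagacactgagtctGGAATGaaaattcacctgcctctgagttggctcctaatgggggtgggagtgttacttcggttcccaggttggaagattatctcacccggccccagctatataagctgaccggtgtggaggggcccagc
CTGF: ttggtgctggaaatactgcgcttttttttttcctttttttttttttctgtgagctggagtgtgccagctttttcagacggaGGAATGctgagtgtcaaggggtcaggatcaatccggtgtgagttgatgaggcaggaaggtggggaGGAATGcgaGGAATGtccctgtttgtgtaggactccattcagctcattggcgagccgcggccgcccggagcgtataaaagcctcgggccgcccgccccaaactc
AMOTL2: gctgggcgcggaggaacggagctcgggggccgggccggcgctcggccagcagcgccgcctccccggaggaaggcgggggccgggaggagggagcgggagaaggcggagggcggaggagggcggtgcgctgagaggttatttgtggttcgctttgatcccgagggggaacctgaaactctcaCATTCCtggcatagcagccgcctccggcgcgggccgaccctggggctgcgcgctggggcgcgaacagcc

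Against the upstream sequences above, ANKRD1 and CTGF both carry repeated matches. Their means were 2.38 and 117 FPKM in F, 82.5 and 178 in FSB, and 23.0 and 185 in F_FSB. Both means in F rest largely on F replicate 1, at 6.65 FPKM for ANKRD1 and 253 for CTGF. Whether the matches have a part in these levels was not tested. AMOTL2, with a single match, had 32.7, 18.7 and 10.4 FPKM in F, 29.2, 28.9 and 33.8 in FSB, and 29.8, 16.8 and 21.9 in F_FSB.

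AMOTL1, AMOTL2 and LATS2 encode proteins that restrain YAP. AMOTL1 and AMOTL2 are angiomotin-like scaffolds of junctions and actin that hold YAP in the cytoplasm. AMOTL1 (chromosome 11, 94501508 to 94609918) had 32.8, 34.8 and 58.9 FPKM in F, 64.0, 61.6 and 62.2 in FSB, and 32.3, 48.4 and 22.4 in F_FSB. All FSB libraries were above all others, and the FSB libraries were nearly equal (62.6 ± 1.21, SD, n = 3). The difference from F did not pass (0.61, SE 0.29, limma, adjusted p = 0.126), but AMOTL1 fell by 0.91 in F_FSB relative to FSB (SE 0.29, limma, adjusted p = 0.0360; -0.78 relative to the median of all genes). That call was lost in 9 of 18 alternatives, with adjusted p = 0.0615 under median-ratio scaling and 0.0532 under quantile normalization, and between 0.0790 and 0.0979 without FSB replicate 1, 2 or 3 or F_FSB replicate 1 or 3. AMOTL2 (chromosome 3, 134074190 to 134093406) did not pass (FSB minus F 0.68, SE 0.36, limma, adjusted p = 0.163). LATS2 (chromosome 13, 21547175 to 21635722), the kinase that phosphorylates YAP and TAZ and is itself a target, stayed between 11.8 and 15.2 FPKM over the 9 libraries, with group means of 13.7, 14.2 and 12.5.

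AXL (chromosome 19, 41725108 to 41767671) encodes a receptor tyrosine kinase for the ligand GAS6. Its libraries spanned 30.8 to 59.0 FPKM in F, 39.1 to 54.2 in FSB and 43.5 to 63.9 in F_FSB, so the groups overlapped throughout. FSB minus F was 0.06 (SE 0.24, limma, adjusted p = 0.856).

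The 2 cofactors moved in opposite directions between F_FSB and FSB, and only WWTR1 passed between FSB and F. WWTR1 (chromosome 3, 149235022 to 149421060), which encodes TAZ, had 58.6, 40.2 and 70.4 FPKM in F, 31.4, 32.04 and 18.7 in FSB, and 44.4, 64.3 and 57.8 in F_FSB. Every FSB library was below every other library. WWTR1 fell by 1.02 in FSB relative to F (SE 0.27, limma, adjusted p = 0.0170) and rose by 1.02 in F_FSB relative to FSB (SE 0.27, limma, adjusted p = 0.0167). Relative to the median of all genes these were -1.16 and 1.15. Without F replicate 3 the lower call against F was missed (-0.84, limma, adjusted p = 0.0541), and with no filter on low values both were (limma, adjusted p = 0.0505 and 0.0510).

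YAP1 (chromosome 11, 101981192 to 102104154) went the other way between F_FSB and FSB, by a smaller amount. It had 47.2, 50.2 and 59.7 FPKM in F, 60.2, 60.9 and 67.8 in FSB, and 45.8, 47.5 and 40.2 in F_FSB. All FSB libraries were above all others, though F replicate 3, at 59.7, was close to the lowest of them, at 60.2. The difference from F did not pass (0.27, SE 0.11, limma, adjusted p = 0.0860) and was 0.13 relative to the median of all genes. Its limma adjusted p was 0.0354 without F replicate 3, 0.391 with median-ratio scaling and 0.417 with quantile normalization. YAP1 fell by 0.49 in F_FSB relative to FSB (SE 0.11, limma, adjusted p = 0.00868, and -0.36 relative to all genes). The ratio of YAP1 to WWTR1 FPKM, also chosen after the values were seen, was 0.805, 1.25 and 0.848 in F, 1.92, 1.90 and 3.62 in FSB, and 1.03, 0.740 and 0.695 in F_FSB. YAP1 thus exceeded WWTR1 in all 3 FSB libraries and in 1 library of each other group.

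TEAD1 (chromosome 11, 12695969 to 12966284), the DNA-binding partner, was steady at 24.1 to 27.4 FPKM in F, 26.2 to 27.4 in FSB and 21.3 to 29.0 in F_FSB. No comparison passed (FSB minus F 0.06, SE 0.11, limma, adjusted p = 0.671).

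**Figure D2:**
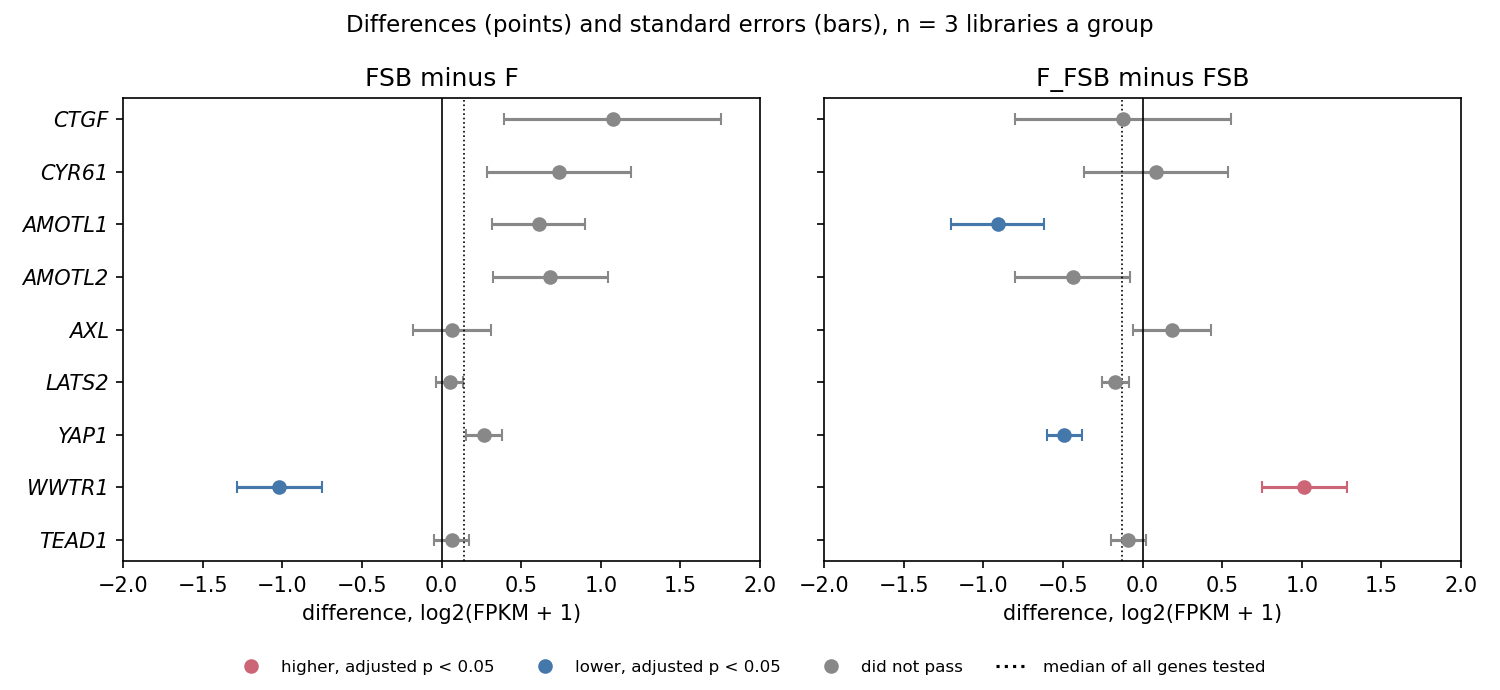
Differences in log2(FPKM + 1) with standard errors for the 9 tested genes, FSB minus F on the left and F_FSB minus FSB on the right (n = 3 libraries a group); colours mark adjusted p under 0.05 and the dotted line is the median of all genes. WWTR1 is at -1.02 and 1.02, and the standard error of CTGF, 0.68, is the widest shown.

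Counted together, 1 of the 9 tested genes passed between FSB and F, WWTR1, which was lower, where 41.9% of all 13216 genes passed, 3763 of them higher and 1773 lower (2424 and 2461 with median-ratio scaling). The median difference of the 9 was 0.27, beside 0.14 over all genes. Libraries of FSB and F did not overlap for 3 of the 9, with AMOTL1 and YAP1 higher and WWTR1 lower, and for 57.9% of all genes. At an unadjusted p under 0.05, limma called 2 of the 9, WWTR1 and YAP1, and 51.1% of all genes. For F_FSB against FSB, 3 of 9 passed (WWTR1 higher, AMOTL1 and YAP1 lower) and 41.8% of all genes did, with a median of -0.12 beside -0.13. The same 3 had an unadjusted p under 0.05, as did 51.0% of all genes, and libraries did not overlap for 4 of the 9, beside 55.8% of all genes. For F_FSB against F, limma called 0 of 9, with 0 of 9 at an unadjusted p under 0.05, where 0.00757% of all genes were called and 9.04% had such an unadjusted p. Libraries overlapped there for all 9, and did not for 13.0% of all genes. The first 2 comparisons share the FSB libraries. The count between FSB and F depended on F replicate 1: without it 4 of 9 passed, since CTGF, CYR61 and AMOTL2 were then higher in FSB (1.87, 1.30 and 1.07, limma, adjusted p = 0.0195, 0.00931 and 0.0236), and 36.7% of all genes did. Without F replicate 3 it was 2 of 9, AMOTL1 and YAP1 in place of WWTR1, with 34.7% of all genes.

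F replicate 1 stood apart for a subset of the genes. Its level was 27.8 times the mean of the other F libraries for ANKRD1, 5.23 times for CTGF, 3.29 times for CYR61 and 2.24 times for AMOTL2. These 4 of 10 were at least 2-fold higher there, as were 3.98% of all genes tested, while AMOTL1 and YAP1 were at 0.701 and 0.858 times. F replicate 1 was the highest of its group for 7 of the 10, beside 35.9% of all genes. ANKRD1 is in these counts of 10 though its F values were used to choose it. Its ratio rests on F replicates 2 and 3 at 0.270 and 0.207 FPKM. F_FSB replicate 1 was likewise the highest of its group for 6 of the 10, beside 36.3% of all genes, at 4.90 times the mean of the other F_FSB libraries for ANKRD1 and 2.50 times for CTGF. The standard deviation of log2(FPKM + 1) among F libraries was 1.52 for ANKRD1, 1.39 for CTGF and 0.98 for CYR61, against a median of 0.15 over all genes, and 0.953%, 1.17% and 2.72% of genes had a larger one. In FSB the same genes had 0.18, 0.20 and 0.16 against a median of 0.12, exceeded by 29.6%, 23.1% and 35.4% of genes. The labels give no reason for the difference between F libraries.

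**Figure D3:**
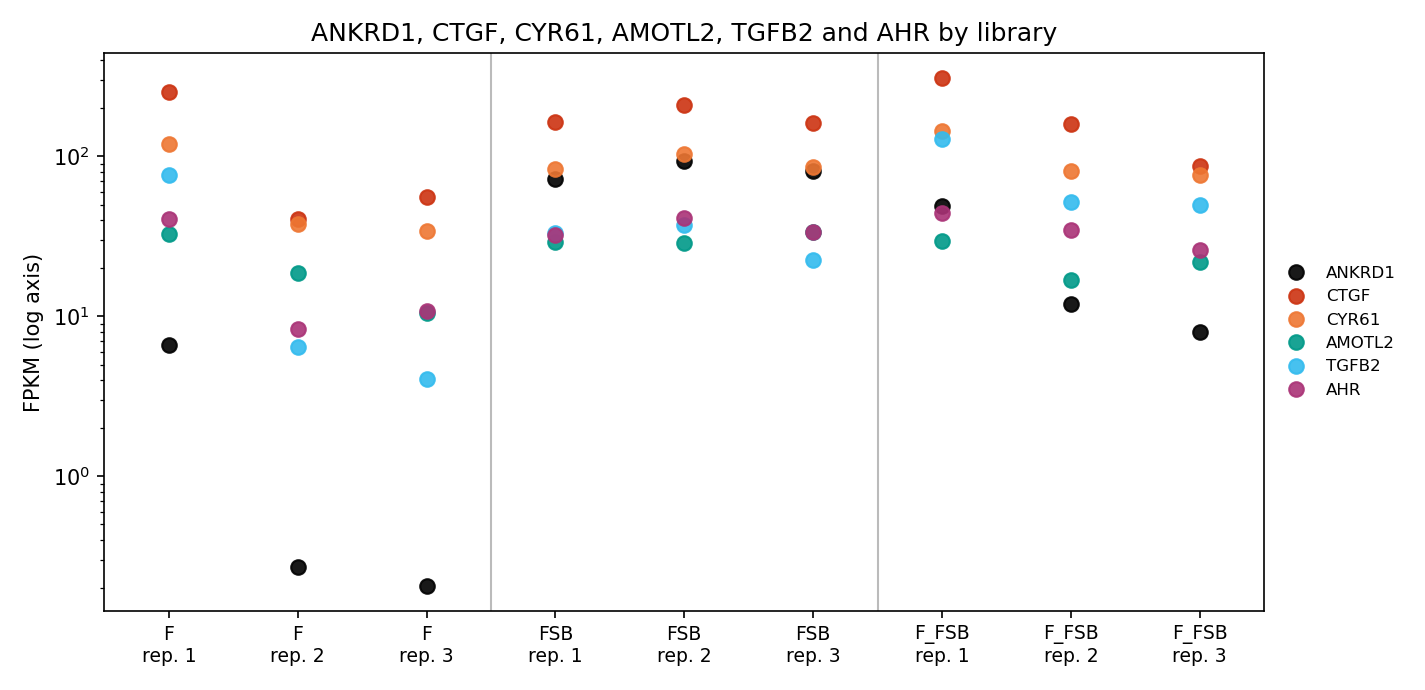
FPKM on a log axis of ANKRD1, CTGF, CYR61, AMOTL2, TGFB2 and AHR in each of the 9 libraries, grouped as F, FSB and F_FSB. In F replicate 1 all 6 lie above F replicates 2 and 3, and ANKRD1 is the lowest of the 6 in each F library.

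By mean level, CTGF led in each group (117 ± 118, 178 ± 26.3 and 185 ± 113 FPKM, SD, n = 3) and CYR61 came next (63.9 ± 47.9, 91.1 ± 10.4 and 100 ± 37.4). In F this order rested on replicate 1: in F replicates 2 and 3 CTGF ranked 3 and 4 among the 10 genes, and CYR61 ranked 5 in both. ANKRD1 was the lowest of the 10 in every F library and ranked 3 in every FSB library, while in F_FSB replicates 1, 2 and 3 it ranked 4, 9 and 10. In the FSB libraries ANKRD1 had 72.8, 93.3 and 81.4 FPKM, each below CYR61 in the same library (84.0, 103 and 86.3), though their ranges overlapped. The order of YAP1 (63.0 ± 4.25) and AMOTL1 (62.6 ± 1.21) changed between FSB libraries. So did that of WWTR1 (27.4 ± 7.50) and TEAD1 (26.7 ± 0.601). Differences between genes were not tested. In F the levels of CTGF, CYR61, WWTR1 (56.4 ± 15.2), YAP1 (52.4 ± 6.52), AXL (45.5 ± 14.1) and AMOTL1 (42.2 ± 14.5) overlapped.

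Of 16 listed genes that are often used as a YAP target signature, 15 passed the filter. NUAK2, a stress-activated kinase, passed it through FSB alone, so its values are a description with no test: FSB had a mean of 3.77 ± 0.476 FPKM, F one of 0.591 ± 0.188 and F_FSB one of 0.618 ± 0.276 (SD, n = 3). Of the other 14, 4 rose and 3 fell in FSB relative to F, where 28.5% of all genes rose and 13.4% fell, and their median was 0.16 beside 0.14 over all genes. ARHGEF17, an activator of RhoA-type GTPases, rose from 12.5 ± 1.35 to 28.5 ± 4.61 (limma, adjusted p = 0.00105), and ASAP1, an ARF GTPase regulator, from 28.2 ± 3.42 to 43.3 ± 2.27 (limma, adjusted p = 0.00834). The genes that fell were CCDC80, a matrix protein (103 ± 47.2 to 17.9 ± 3.96, limma, adjusted p = 0.00705), NT5E, which encodes the sort marker CD73 (limma, adjusted p = 0.00667), and the RNA-binding protein gene RBMS3 (18.1 ± 3.12 to 13.6 ± 0.652, limma, adjusted p = 0.0395). Higher calls numbered 2 with median-ratio scaling or quantile normalization, 1 with same-sum scaling, and 2 without FSB replicate 1 or 2 or F_FSB replicate 1. Over all genes, higher calls numbered 2424, 2636 and 2339 with these scalings, beside 3763 without rescaling. Without those libraries they numbered 2618, 2415 and 3579. In F_FSB relative to FSB 3 of the 14 rose and 2 fell, beside 13.7% and 28.2% of all genes: ARHGEF17 and ASAP1 fell by 0.95 and 0.44, and CCDC80 and NT5E rose by 2.12 and 1.71, as did DOCK5, chosen after its values were seen, by 0.95. There, 1 gene fell under each of the 3 scalings and without FSB replicate 1, 2 or 3 or F_FSB replicate 1 or 2. Of all genes, 2524, 2756 and 3507 fell with median-ratio scaling, quantile normalization and same-sum scaling, beside 3722 without rescaling. Without those libraries, 2700, 2545, 2975, 3339 and 3594 of all genes fell.

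TGFB2, a ligand of the blocked receptors that is also on the target list and was chosen after its values were seen, had 76.9, 6.40 and 4.05 FPKM in F, 33.4, 37.1 and 22.6 in FSB, and 129, 51.9 and 50.1 in F_FSB. F replicate 1 was again above all FSB libraries and the other F libraries below them. The difference between FSB and F did not pass (1.14, SE 0.93, limma, adjusted p = 0.358).

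Among the upstream Hippo kinases and scaffolds, 21 of 22 were tested. In FSB relative to F 2 rose, 3 fell and 16 did not pass, beside 28.5% of all genes that rose and 13.4% that fell, with a median of 0.09 beside 0.14. STK4, the MST1 kinase at the head of the cascade, rose from 6.27 ± 0.400 to 10.6 ± 0.611 FPKM (SD, n = 3; limma, adjusted p = 0.00163), and TAOK3, a kinase able to activate it, fell from 10.6 ± 1.13 to 6.18 ± 0.362 (limma, adjusted p = 0.00627). LATS1, the other LATS kinase, had 8.88 ± 0.598 and 7.35 ± 0.555 and did not pass (limma, adjusted p = 0.0811), and AMOT, the founding angiomotin, had 61.7 ± 32.9 and 43.0 ± 12.6 (limma, adjusted p = 0.364). Lower calls numbered 5 with median-ratio scaling or quantile normalization and 1 with same-sum scaling. Over all genes they numbered 2461, 2316 and 1429 with these scalings, beside 1773 without rescaling, and higher calls 2424, 2636 and 2339. Leaving out FSB replicate 1 or F replicate 1 or 2 also gave 1 lower call, and leaving out F replicate 2 or 3 or FSB replicate 1 or 2 gave 1 higher call, as each scaling did. In F_FSB relative to FSB 3 rose and 2 fell, where 13.7% of all genes rose and 28.2% fell, with STK4 at -0.50 and TAOK3 at 0.64 (limma, adjusted p = 0.00561 and 0.00815). Without FSB replicate 1 or 3 or F_FSB replicate 3, 1 rose, beside 1236, 1649 and 1579 of all genes. Without FSB replicate 1 or 2, 1 fell, beside 2700 and 2545 of all genes.

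The other TEAD factors were present in every library. TEAD2 was at 49.8 ± 4.68, 60.8 ± 5.80 and 50.1 ± 7.86 FPKM in F, FSB and F_FSB (SD, n = 3), TEAD3 at 29.6 ± 6.51, 32.2 ± 1.63 and 28.7 ± 5.14, and TEAD4 at 8.97 ± 3.05, 16.1 ± 1.35 and 8.99 ± 1.42. TEAD4 alone of the 5 tested TEAD and VGLL genes passed, where 41.9% and 41.8% of all genes passed in the 2 comparisons with FSB. It rose by 0.82 in FSB relative to F and fell by 0.78 in F_FSB relative to FSB (limma, adjusted p = 0.0183 and 0.0219). The first call was lost with same-sum scaling, with no filter and without FSB replicate 2. The second was lost with no filter, under median-ratio scaling and quantile normalization and without FSB replicate 1 or 2 or F_FSB replicate 2. VGLL4, a cofactor that competes with YAP for TEAD, had 29.4 ± 5.93, 18.4 ± 1.86 and 28.8 ± 9.69 and did not pass (FSB minus F -0.63, limma, adjusted p = 0.0820). It alone of the 5 had a negative difference there. In FSB relative to F, 1 of the 5 was called lower with median-ratio scaling, quantile normalization, 2 groups only and without F_FSB replicate 3. Of all genes, 2461, 2316, 1824 and 1811 were called lower there. In F_FSB relative to FSB, 1 rose with median-ratio scaling and without F_FSB replicate 3, beside 2505 and 1579 of all genes. Without F_FSB replicate 1, 2 fell, beside 3339 of all genes.

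Of 10 paralogs of ANKRD1, CTGF and AXL and ligands of AXL, 7 were tested, and in FSB relative to F 2 rose, 3 fell and 2 did not pass (28.5% of all genes rose and 13.4% fell), with a median of -0.95 beside 0.14. WISP1, a CCN relative of CTGF, fell from 5.46 ± 2.90 to 0.197 ± 0.0993 FPKM (SD, n = 3, limma, adjusted p = 0.000938) and was at 1.55 ± 0.299 in F_FSB. WISP1 and NOV, another of the genes that fell, were below 1 FPKM in every FSB library. Both passed the filter through F and F_FSB, where they were higher, which limits what their calls can show. GAS6, the ligand of AXL, fell from 58.4 ± 37.1 to 10.3 ± 1.26 (limma, adjusted p = 0.00223) and was at 25.7 ± 1.74 in F_FSB. The AXL relatives TYRO3 and MERTK, chosen after their values were seen, rose from 4.74 ± 0.960 to 9.40 ± 0.139 and from 3.40 ± 0.939 to 8.63 ± 0.740 (limma, adjusted p = 0.00257 and 0.00444). ANKRD2 and ANKRD23, the paralogs of ANKRD1, and WISP3 were too low to be tested. Lower calls numbered 5 with a pseudocount of 0.1, 4 under each of the 3 scalings and 2 with no filter. Among all genes they numbered 1832 with that pseudocount, 2461, 2316 and 1429 under the scalings and 1541 with no filter. The list also had 2 lower calls when FSB replicate 1, FSB replicate 2, F replicate 1 or F replicate 2 was dropped. All genes then had 1172, 1214, 1550 and 1401, beside 1773 in the main fit. In F_FSB relative to FSB 4 rose and 2 fell, beside 13.7% and 28.2% of all genes. There, 2 rose with no filter and without FSB replicate 1 or 2 or F_FSB replicate 2, beside 1513, 1236, 1272 and 1527 of all genes.

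SRF and its actin-sensitive cofactors MKL1 and MKL2 share several targets with YAP, so their genes were counted as well. Of 15 tested of 16, 7 rose and 0 fell in FSB relative to F, where 28.5% of all genes rose and 13.4% fell. Their median was 0.48 beside 0.14 over all genes. TAGLN, an actin-bundling protein gene, went from 191 ± 51.6 to 717 ± 226 FPKM (SD, n = 3; limma, adjusted p = 0.00139) and MYL9, a myosin light chain gene, from 198 ± 35.4 to 490 ± 84.1 (limma, adjusted p = 0.00163). Higher calls numbered 3 with median-ratio or same-sum scaling and 6 with quantile normalization, and lower calls 1 without F replicate 2. Over all 13216 genes, higher calls numbered 2424, 2339 and 2636 with these scalings, beside 3763 without rescaling. Lower calls over all genes numbered 1401 without F replicate 2. In F_FSB relative to FSB 0 rose and 6 fell, where 28.2% of all genes fell, but 1 fell with median-ratio scaling, 2 without FSB replicate 1 or 2 and 3 without FSB replicate 3 or F_FSB replicate 3. Without F_FSB replicate 1, 4 fell and 1 rose, beside 3339 and 1570 of all genes. Of all genes, 2524 fell with median-ratio scaling, beside 3722 without rescaling. Without FSB replicate 1, 2 or 3 or F_FSB replicate 3, 2700, 2545, 2975 and 3069 of all genes fell.

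**Figure D4:**
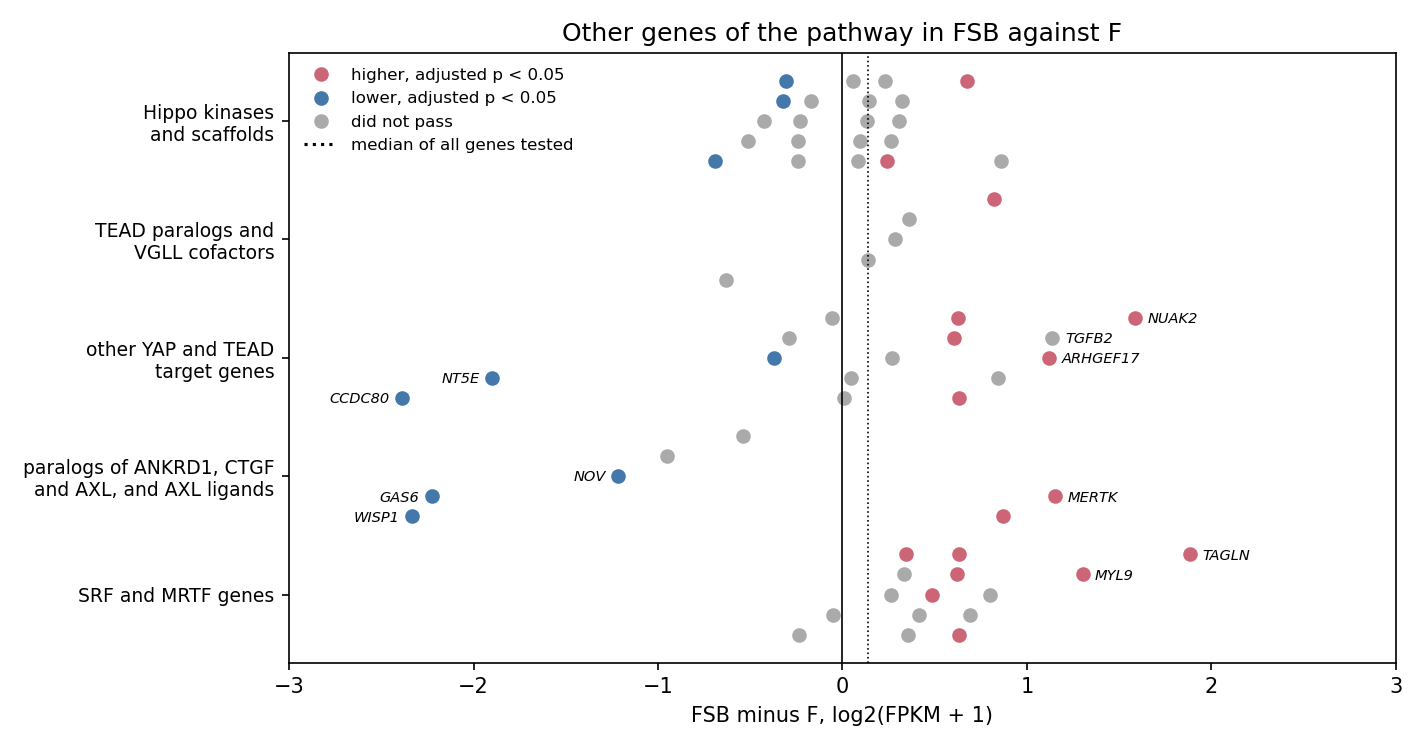
Differences between FSB and F in log2(FPKM + 1) for every tested gene of the 5 pathway lists; colours mark adjusted p under 0.05, names are given from a difference of 1 up, and vertical offsets within a list only separate points. Among the other targets ARHGEF17 is at 1.12, CCDC80 at -2.39 and NT5E at -1.90. NUAK2, at 1.59, is also drawn and coloured. It passed the filter through FSB alone and is given no test in the text, so its colour is not to be read as a call.

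The genes most like ANKRD1 and CTGF were ranked by Pearson correlation of log2(FPKM + 1) over the 9 libraries among 9298 genes with at least 5 FPKM in their highest group. The libraries fall into groups, so these values describe the shape of the pattern only. A correlation over 0.9 was common: 185 of these genes had one with ANKRD1 and 35 with CTGF (129 and 29 with median-ratio scaling). For ANKRD1 the closest were PDE5A, which breaks down cyclic GMP, OSBPL9, C18orf8, the integrin gene ITGA8 and EPDR1, with correlations of 0.99, 0.98, 0.98, 0.98 and 0.98. ITGA8 had 14.6, 2.07 and 3.59 FPKM in F, 103, 111 and 68.8 in FSB and 40.0, 29.3 and 21.3 in F_FSB, the same order of groups as ANKRD1. For CTGF the closest were AHR, which encodes the aryl hydrocarbon receptor, CYR61, the adhesion gene CNTN4, the matrix link protein gene HAPLN1 and BASP1, each with a correlation of 0.96. AHR had 40.5, 8.40 and 10.7 FPKM in F, 32.4, 41.2 and 33.9 in FSB and 44.6, 34.8 and 26.0 in F_FSB. CYR61 was the only other gene of the 10 on either list. With median-ratio scaling 4 of the 5 genes were the same for each, SLFN5 replacing C18orf8 and MCL1 replacing BASP1.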

How the data were processed

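RNA from 9 cultures was sequenced, 3 in each medium, with a strand-specific kit per the labels' protocols. Strand use in counting: not given in the sources used here. The authors deposited FPKM with the bounds of an interval for each gene, per the file headers in the format of Cufflinks. Cufflinks 2.1.1, TopHat2 2.0.12 and the build GRCh37 are listed in the submitters' processing notes, without options. Gene starts count from 0 in the files and are printed 1-based on GRCh37. Loci with a status other than OK in any library (95) were left out, and genes with at least 1 FPKM in at least 3 libraries were tested, 13216 in all. The limma 3.58.1 package (R 4.3.3) was fitted to log2(FPKM + 1) of all 9 libraries at once, two-sided, with a mean-variance trend and Benjamini-Hochberg adjustment; this scale understates changes of low genes. The fit was tested on simulated data. Joining and figures used Python 3.11.15 with pandas 2.3.3 and matplotlib 3.10.9. Relative depth was taken from the commonest low value of short olfactory receptor genes times length, assumed to be 1 fragment.

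The members and lists were chosen with earlier results of these data known. Named genes are the members, the 2 lowest adjusted p of each list in FSB minus F (6 for other targets), TEAD2, TEAD3, TEAD4, LATS1, AMOT, VGLL4 and the 5 most similar genes; AJUBA was read as JUB. The labels do not say whether cultures came from separate differentiations, so p-values measure the spread between these samples. No pair of libraries was identical (at most 0.00586% equal nonzero values). Alternatives were another pseudocount, no filter, 3 scalings (median ratio to the mean library, quantiles, equal FPKM sums), no trend, 2 groups only, a replicate block, leaving out each library and, chosen after seeing the data, the midpoint of the Cufflinks interval.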

Additional observations from a re-analysis of the deposited data

How the results depend on the processing

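Over the 18 alternatives per comparison, 446 of 486 values of the 9 tested genes kept their direction and their side of the threshold, 12 called values lost the call (9 of them AMOTL1 in F_FSB minus FSB), 5 passed newly and 23 changed sign, none of them a gene that passed. The count of called genes in FSB minus F was 1 and became 0 with no filter on low values and 1 to 4 without 1 library. In F_FSB minus FSB it was 3, 1 with no filter and 2 to 3 without 1 library, and in F_FSB minus F it was 0 throughout. With no filter 25498 loci enter the adjustment, and 20.1% of them passed in FSB minus F and 20.1% in F_FSB minus FSB. In FSB minus F, AXL, LATS2 and TEAD1 turned to -0.0896, -0.10 and -0.0868 with median-ratio scaling and to -0.0754, -0.11 and -0.0868 with quantile normalization. In F_FSB minus FSB, CTGF turned to 0.0313 and TEAD1 to 0.0608 with median-ratio scaling, TEAD1 to 0.0336 with quantile normalization and CYR61 to -0.0130 with same-sum scaling. Leaving out 1 library moved AXL from -0.19 to 0.27 and LATS2 from -0.0121 to 0.0922 in FSB minus F. In F_FSB minus FSB it moved CTGF from -0.58 to 0.32, CYR61 from -0.20 to 0.24 and TEAD1 from -0.19 to 0.0212. In F_FSB minus F it moved AMOTL2 from -0.15 to 0.63, AXL from -0.00389 to 0.45, TEAD1 from -0.13 to 0.0851 and WWTR1 from -0.22 to 0.17. Among values with no test, ANKRD1 moved by more than its spread with the pseudocount of 0.1, to 6.49 and 4.20 as given above.

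The culture numbers are shared between groups, but not every same-numbered pair deviated together. The correlation of deviations across genes was 0.292 for F replicate 1 with F_FSB replicate 1, each the best partner of the other between these groups, and -0.136 to 0.0995 in the other 8 pairs. With the replicate block, 1, 2 and 0 genes were called in the 3 comparisons, AMOTL1 being lost (limma, adjusted p = 0.0689), and 4842, 4983 and 0 of all genes. Over all genes, F_FSB minus F had 1 call and 74 without F replicate 1, and FSB minus F had 5536 and 3629 without FSB replicate 2. Library depth is known only as a rough relative estimate, which rests on 2 to 8 olfactory receptor genes a library. In that estimate F_FSB replicate 2, with 4 such genes, was the shallowest.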
